A study of Mus musculus with 4 samples.

Results

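The TNF superfamily ligands are trimeric cytokines, most of them made as type II membrane proteins and some shed from the cell surface, that act on receptors of the TNF receptor superfamily. Receptors with a death domain can start apoptosis, and receptors without one recruit TRAF adaptors and activate NF-kB. In NK cells the family is known for killing through TRAIL and Fas ligand, and for signals to dendritic cells, T cells and stroma through TNF, lymphotoxin, LIGHT and the costimulatory ligands. The 10 ligands described here, taken by gene symbol from 21025 rows, are Tnfsf10, Fasl, Ltb, Lta, Tnf, Tnfsf14, Tnfsf8, Tnfsf9, Tnfsf4 and Tnfsf11. Each had 1 row, holding 1 RefSeq accession.

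RNA was sequenced from freshly sorted liver NK cells of C57BL/6 mice, with 2 libraries for each of 2 subsets, in a series on the role of Nfil3 in NK cell development. TRAIL+ cells were TRAIL+ CD49b-, and CD49b+ cells were TRAIL- CD49b+. Both subsets were TCRb-, NK1.1+ and NKp46+, and no gene alteration, treatment, age or number of mice is given in the labels. The labels do not tell whether replicates came from separate mice, so the p-values rest on a spread between libraries that could be technical only. Levels are RPKM, in which a gene's reads are divided by its length and by the library's reads, so levels of different genes can be set side by side. Differences are TRAIL+ minus CD49b+ on the log2(RPKM + 1) scale, with limma's SE and a Benjamini-Hochberg adjusted p over 10047 genes. A gene rose or fell where that p was under 0.05. These are sorted populations, in which fewer cells that use a gene and less RNA per cell cannot be told apart.

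The NK genes of the shared gate were abundant in all 4 libraries, with Ncr1 at 978 to 1114 RPKM and Klrb1c at 901 to 1253 RPKM. Totals of 3786497 to 4232967 reads a library follow from the deposited values. Among markers of other cell types, those of T cells summed to 37.3 and 65.3 RPKM in TRAIL+ replicates 1 and 2 and to 5.61 and 4.51 RPKM in CD49b+ replicates 1 and 2. Of that list 3 of 3 tested members, Cd3e, Cd8a and Cd4, were higher in TRAIL+ cells, where 4.76% of all tested genes were. Genes were tested where they reached 1 RPKM in at least 2 libraries, and Cd8a and Cd4 did so only in TRAIL+ libraries. Cd8b1, Cd5 and Cd6 stayed at or below 1.16 RPKM and Foxp3 was at 0 in all 4 libraries, and 7 of the 10 listed markers had a row. The Cd4 call was lost without CD49b+ replicate 2 (limma adjusted p = 0.0648) and with a pseudocount of 0.1 (0.0636). Markers of B cells (mainly Cd79b and Cd79a) summed to 13.1 to 25.2 RPKM over the 4 libraries, those of dendritic cells (mainly Cd74 and H2-Ab1) to 38.7 to 164 RPKM, those of neutrophils (mainly S100a9 and S100a8) to 0.644 to 22.1 RPKM, and those of hepatocytes (mainly Alb and Apoa2) to 1.28 to 25.2 RPKM. These 4 sums were higher in replicate 1 than in replicate 2 of each subset. Of the dendritic cell list 1 of 3 tested members, Xcr1, was higher in TRAIL+ cells (limma adjusted p = 0.00718). It had 54 reads in each TRAIL+ library against 2 and 1 in the CD49b+ libraries, and reached 1 RPKM only in the TRAIL+ libraries. Zbtb46 stood the other way, at 14 and 13 against 32 and 24 reads, and was too low to test. The rest of the dendritic cell list overlapped between the subsets. Markers of Kupffer cells and monocytes (mainly Ly6c2 and Lyz2) summed to 127 and 59.1 RPKM in the TRAIL+ libraries and to 661 and 609 RPKM in the CD49b+ libraries. Ly6c2 carried that gap, at 16.2 and 30.2 against 518 and 593 RPKM (limma adjusted p = 0.00118), and no other of the 9 tested members passed. The Kupffer cell marker Clec4f, at 9 and 12 against 2 and 0 reads, stood the other way. So did C1qa, at 23 and 18 against 6 and 0 reads, Cd5l and C1qc. Cd68 stood lower in both TRAIL+ libraries, at 21 and 12 against 33 and 23 reads. Vsig4, C1qb, Csf1r, Adgre1 and Lyz2 overlapped between the subsets, and Marco was at 0 in all 4 libraries. Markers of endothelial and stellate cells, nearly all of it Pecam1, summed to 41.4 to 53.03 RPKM, those of mast cells and basophils (mainly Kit and Cpa3) to 7.47 to 13.7 RPKM, and those of other innate lymphoid cells to at most 0.2603 RPKM.

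Lymphotoxin beta and CD30 ligand were the ligands that rose in TRAIL+ cells beside TRAIL itself, which the sort selected. Of the 10 ligands, 8 reached 1 RPKM in at least 2 libraries and were tested, and all 8 of these did so in all 4 libraries. Of the 8, 3 were higher in TRAIL+ cells, where 4.76% of all tested genes were, and 8.62% of them passed in either direction. With Tnfsf10 left aside as a gate gene, 2 of 7 were higher. By limma 0 of 8 were lower, against 3.86% of all tested genes. At an unadjusted p under 0.05, 5 of 8 were higher and 0 lower, against 11.1% and 8.85% of all tested genes, and by limma voom on reads 3 and 0, against 4.87% and 3.99%. The groups did not overlap, with TRAIL+ higher, in 6 of 8 ligands, or 5 of 7 without Tnfsf10, against 24.9% of tested genes, and with TRAIL+ lower in 0 of 8, against 21.8% (46.8% in either direction). The median difference of the 8 was 1.01, or 0.73 without Tnfsf10, beside 0.00499 over all tested genes.

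**Figure D1:**
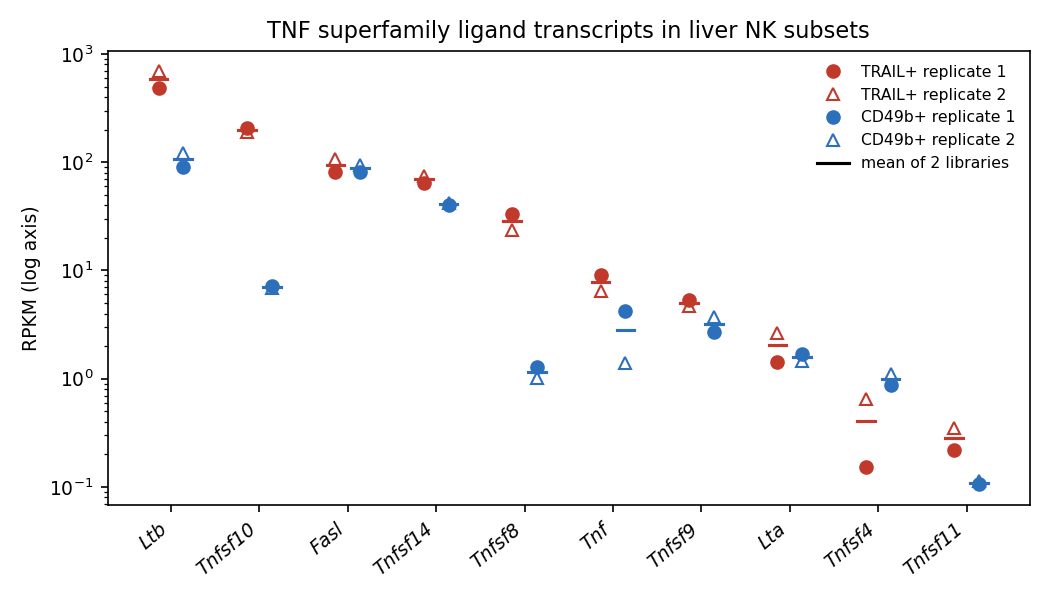
RPKM (log axis) of the 10 ligands in each of the 4 libraries, ordered by their mean in TRAIL+ cells, with a bar at the mean of 2 libraries. Ltb is the most abundant ligand of both subsets, and the widest gaps between subsets are those of Tnfsf10, Tnfsf8 and Ltb.

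Among the death ligands, Tnfsf10 checks the labels and is no finding. It stood at 208 and 189 RPKM in the TRAIL+ libraries and at 7.26 and 6.94 RPKM in the CD49b+ libraries, where it rested on 152 and 135 reads. The CD49b+ libraries thus held some Tnfsf10 transcript, at 0.0884 and 0.0734 times the level of Fasl in the same library. Itga1, another gene of TRAIL+ cells, stood at 76.7 and 37.4 RPKM in the TRAIL+ libraries and at 0.747 and 1.396 RPKM in the CD49b+ libraries. Whether TRAIL+ cells in the CD49b+ gate gave these CD49b+ reads was not tested. Itga2, the CD49b gate gene, was at 5.26 and 1.55 RPKM in TRAIL+ libraries and 52.1 and 37.0 RPKM in CD49b+ libraries. Whether CD49b+ cells in the TRAIL+ gate gave its TRAIL+ reads was not tested either.

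Fasl encodes Fas ligand, which kills through Fas and is stored with the cytotoxic granules of NK cells. It stood at 80.6 and 107.9 RPKM in the TRAIL+ libraries and at 82.03 and 94.4 RPKM in the CD49b+ libraries. The subsets overlapped, since the TRAIL+ libraries lay below and above both CD49b+ libraries. The difference was 0.08 ± 0.20 (SE, n = 2 per group, limma adjusted p = 0.9004), with a 95% interval of -0.43 to 0.59, so changes inside that interval cannot be told from none here.

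The next group of ligands is the lymphotoxin and TNF cluster. Ltb encodes lymphotoxin beta, which holds lymphotoxin alpha at the cell surface in a heterotrimer that binds the lymphotoxin beta receptor and is known for its part in lymphoid tissue organisation. Lta encodes lymphotoxin alpha, and Tnf the inflammatory cytokine TNF. Their genes follow one another on chromosome 17, in the order Ltb, Tnf, Lta in RefSeq's GRCm38.p6. The windows from 250 bases before to 50 bases after the gene start are shown for Ltb and Tnf, because the adjacent genes differed in level and in size of difference, and for Tnfsf8, the other ligand that rose. They are from RefSeq (GRCm38.p6), written 5′ to 3′ on the strand of the gene, at chr17:35194257-35194556, plus strand, for Ltb, chr17:35201958-35202257, minus strand, for Tnf and chr4:63861235-63861534, minus strand, for Tnfsf8. Capitals mark matches on either strand to AP-1 (TGANTCA), T-box (AGGTGTG), RUNX (TGTGGT), ETS (AGGAAG) and NF-kB motifs, of which none overlapped another in these windows.
Ltb: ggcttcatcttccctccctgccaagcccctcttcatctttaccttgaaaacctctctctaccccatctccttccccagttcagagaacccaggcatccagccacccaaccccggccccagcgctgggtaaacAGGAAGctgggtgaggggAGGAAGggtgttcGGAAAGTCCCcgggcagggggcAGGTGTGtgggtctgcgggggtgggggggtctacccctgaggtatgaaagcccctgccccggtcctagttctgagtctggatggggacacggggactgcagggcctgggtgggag
Tnf: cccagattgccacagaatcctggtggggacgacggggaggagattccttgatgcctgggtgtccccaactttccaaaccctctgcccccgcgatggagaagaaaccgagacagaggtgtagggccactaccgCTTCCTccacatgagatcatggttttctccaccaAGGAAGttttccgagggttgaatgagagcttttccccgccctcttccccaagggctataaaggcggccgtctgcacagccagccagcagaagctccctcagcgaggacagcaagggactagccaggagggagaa
Tnfsf8: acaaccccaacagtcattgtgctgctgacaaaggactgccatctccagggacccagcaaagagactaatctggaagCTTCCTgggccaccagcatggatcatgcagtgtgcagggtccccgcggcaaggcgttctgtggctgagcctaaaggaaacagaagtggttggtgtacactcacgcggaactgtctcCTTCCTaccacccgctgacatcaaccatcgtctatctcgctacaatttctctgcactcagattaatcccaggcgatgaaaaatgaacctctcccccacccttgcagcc

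The Ltb window held 1 T-box match, 65 bases before the start, 1 NF-kB match, 87 bases before it, and 2 ETS matches. The Tnf and Tnfsf8 windows held 2 ETS matches each and none of the other letters. Windows were at hand for 8 of the 10 ligands. A T-box match was in 1 of these 8 (5.85% of 32851 windows of the same length), an NF-kB match in 1 (8.46%), an AP-1 match in 1 (7.81%), a RUNX match in 1 (16.8%) and an ETS match in 7 (35.4%). The AP-1 and RUNX matches were both in the Tnfsf14 window. The Lta window held 0 matches to any of the 5 motifs. A match describes letters and shows no binding.

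Ltb stood at 486 and 689.8 RPKM in the TRAIL+ libraries and at 91.2 and 121.8 RPKM in the CD49b+ libraries. Both TRAIL+ libraries were above both CD49b+ libraries, by at least 3.99 times between the nearest libraries. Group means were 588 ± 144 and 106.5 ± 21.6 RPKM (SD, n = 2 each), a 5.52-fold difference, and the log2 difference was 2.45 ± 0.26 (SE, limma adjusted p = 0.00467). By mean RPKM, Ltb was number 84 of 21025 rows in TRAIL+ cells and number 685 in CD49b+ cells. The T cell markers Cd3e, Cd8a and Cd4 moved with Ltb and Tnfsf8, as did Xcr1 of the dendritic cell list. Zbtb46 of that list stood the other way, and its remaining members overlapped between the subsets. Of the low T cell markers, Cd6 stood slightly higher in TRAIL+ cells. Cd8b1 (0 and 1 against 7 and 1 reads) and Cd5 overlapped, and Foxp3 was at 0. The Kupffer cell and monocyte markers Clec4f, C1qa, Cd5l and C1qc also stood higher in both TRAIL+ libraries, and Ly6c2 and Cd68 lower. Of these, Clec4f was too low to test and only Ly6c2 passed. The part of other cell types in the differences of Ltb and Tnfsf8 was not tested.

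Tnf was far less abundant than its neighbour. It stood at 9.09 and 6.51 RPKM in the TRAIL+ libraries and at 4.22 and 1.41 RPKM in the CD49b+ libraries, the last of which rested on 9 reads. The groups did not overlap, but the CD49b+ libraries were 2.99-fold apart. The log2 difference of 1.29 ± 0.41 had an unadjusted 95% interval of 0.27 to 2.32 and did not pass the test (SE, limma adjusted p = 0.148). The ratio of means moved from 2.77 with all libraries to 5.53 (adjusted p = 0.0442) with CD49b+ replicate 1 left out, and to 1.85 (adjusted p = 0.603) with CD49b+ replicate 2 left out.

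Lta was near the limit of 1 RPKM in both subsets, at 1.42 and 2.67 RPKM in the TRAIL+ libraries and 1.70 and 1.47 RPKM in the CD49b+ libraries, from 8 to 14 reads a library. The groups overlapped. Its log2 difference was 0.20 ± 0.29 (SE, limma adjusted p = 0.81002), with a 95% interval of -0.51 to 0.92. The transcript of lymphotoxin beta thus exceeded that of lymphotoxin alpha 343-fold and 259-fold in the TRAIL+ libraries and 53.5-fold and 83.0-fold in the CD49b+ libraries, on few Lta reads.

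The genes on either side of the cluster were read in the same order. Lst1, a leukocyte transcript next to Ltb, stood at 21.6 and 13.2 RPKM in TRAIL+ libraries and 5.62 and 1.82 RPKM in CD49b+ libraries. Its difference of 2.05 ± 0.46 missed the threshold (SE, limma adjusted p = 0.0576). It passed with the replicate block (0.000233), and not by voom on reads (0.0975) or with the gene length correction (0.102). With 1 library left out its ratio of means ran from 3.097 without CD49b+ replicate 2 to 9.59 without CD49b+ replicate 1. Nfkbil1, which encodes a protein related to the inhibitors of NF-kB and lies next to Lta, rose, from 6.25 and 5.35 to 25.7 and 25.4 RPKM, a difference of 1.97 ± 0.18 (limma adjusted p = 0.00314). Lta therefore lay between a neighbour that rose and Tnf, which did not pass the test. Atp6v1g2, a proton pump subunit gene after Nfkbil1, stood at 1.48 and 2.82 against 0.316 and 0.340 RPKM (limma adjusted p = 0.0710). It passed with the gene length correction (0.0423) and the replicate block (0.0114), and not by voom on reads (0.105). Its ratio of means was 4.51 to 8.61 with 1 library left out.

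**Figure D2:**
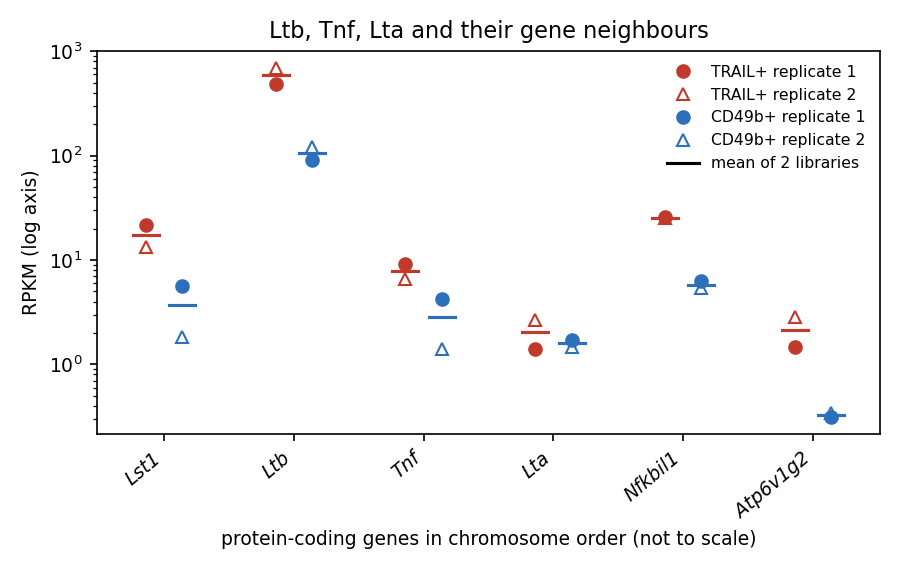
RPKM (log axis) of 6 adjacent protein-coding genes in the order of RefSeq's GRCm38.p6, per library with a bar at the mean of 2 libraries. Ltb reaches 486 and 689.8 RPKM in TRAIL+ libraries while the adjacent Tnf and Lta stay at or below 9.09 RPKM, and the subsets overlap at Lta.

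Tnfsf14 encodes LIGHT, a ligand of HVEM and of the lymphotoxin beta receptor, and it was an abundant ligand of both subsets. It stood at 64.2 and 75.1 RPKM in the TRAIL+ libraries and at 40.6 and 42.2 RPKM in the CD49b+ libraries. Both TRAIL+ libraries were higher, and the group means of 69.6 ± 7.73 and 41.4 ± 1.13 RPKM (SD, n = 2 each) differed 1.68-fold. The log2 difference of 0.73 ± 0.16 fell just short of the test (SE, limma adjusted p = 0.0566), with an unadjusted 95% interval of 0.32 to 1.14. It passed without TRAIL+ replicate 1 (adjusted p = 0.0163) and with a gene length correction (0.0191), and was far from passing without CD49b+ replicate 1 (0.543) or 2 (0.437).

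Tnfsf8 encodes CD30 ligand, which signals through CD30 on activated lymphocytes. It stood at 33.3 and 23.5 RPKM in the TRAIL+ libraries and at 1.27 and 1.03 RPKM in the CD49b+ libraries. The groups were wide apart, with the nearest libraries 18.5-fold different. Group means were 28.4 ± 6.93 and 1.15 ± 0.17 RPKM (SD, n = 2 each), a 24.8-fold difference and a log2 difference of 3.76 ± 0.24 (SE, limma adjusted p = 0.00107). Of the neighbouring genes in RefSeq's order, Tnfsf15 on one side was at or below 0.0453 RPKM, and Tnc, on the other, was at 0 in all 4 libraries.

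Among the other costimulatory ligands, Tnfsf9 encodes 4-1BB ligand. It stood at 5.38 and 4.71 RPKM in the TRAIL+ libraries and 2.68 and 3.71 RPKM in the CD49b+ libraries, from 14 to 27 reads a library. The groups did not overlap, but the log2 difference of 0.54 ± 0.23 did not pass (SE, limma adjusted p = 0.297, 95% interval -0.05 to 1.12).

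Tnfsf4, which encodes OX40 ligand, and Tnfsf11, which encodes RANKL, the factor that drives osteoclast formation, were too low to test. Tnfsf4 had 1 and 4 reads in the TRAIL+ libraries and 6 and 7 reads in the CD49b+ libraries, so both CD49b+ libraries were the higher ones. The ratio of reads per total, CD49b+ over TRAIL+, was 2.50 with an exact binomial 95% interval of 0.837 to 8.96, so no difference was detectable at this depth. Tnfsf11 had 2 and 3 reads against 1 and 1, a ratio of TRAIL+ over CD49b+ of 2.60 with an exact binomial 95% interval of 0.425 to 27.3. Both intervals cover counting error only.

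**Figure D3:**
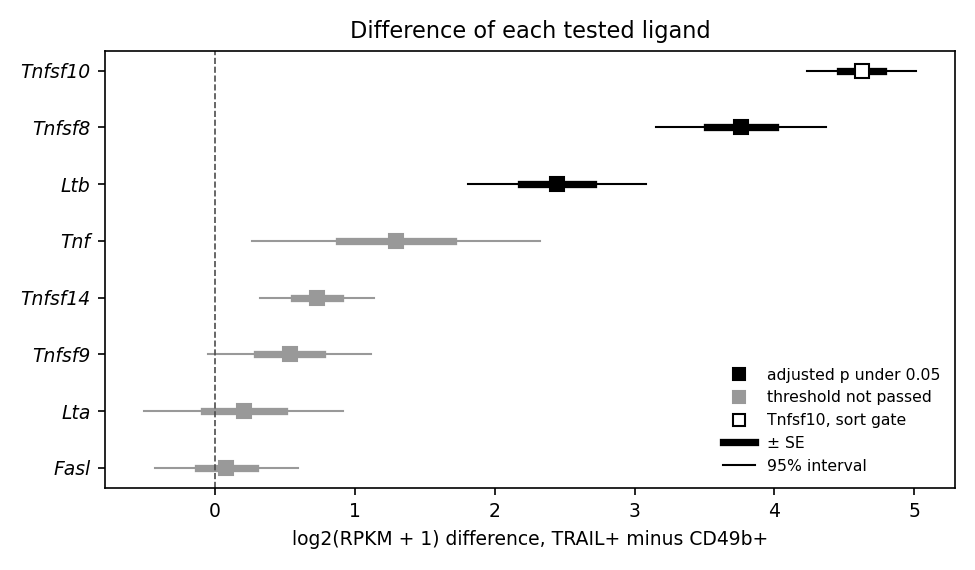
Difference on the log2(RPKM + 1) scale, TRAIL+ minus CD49b+, for the 8 tested ligands, with thick bars for ± SE and thin bars for the unadjusted 95% interval. Tnfsf8 (3.76) and Ltb (2.45) passed the adjusted threshold beside the gate gene Tnfsf10 (4.62), and the intervals of Tnfsf9, Lta and Fasl include 0.

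Set side by side per length, the ligands summed to 889 and 1101 RPKM in the TRAIL+ libraries and to 232 and 274 RPKM in the CD49b+ libraries. Without the gate gene the sums were 681 and 911 against 225 and 267 RPKM. Ltb made up 71.4% and 75.7% of the sum of the 9 ligands without Tnfsf10 in TRAIL+ cells, against 40.6% and 45.6% in CD49b+ cells. Fasl made up 11.8% of that sum in each TRAIL+ library, against 36.5% and 35.3% in CD49b+ cells, while its RPKM overlapped between the subsets. Tnfsf8 went from 0.565% and 0.384% in CD49b+ cells to 4.90% and 2.58% in TRAIL+ cells.

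In TRAIL+ cells the order of the levels was Ltb, Tnfsf10, Fasl, Tnfsf14, Tnfsf8, Tnf, Tnfsf9, Lta, Tnfsf4 and Tnfsf11. Neighbours in that order had libraries that did not overlap, except Tnfsf4 and Tnfsf11. In CD49b+ cells the order was Ltb, Fasl, Tnfsf14, Tnfsf10, Tnfsf9, Tnf, Lta, Tnfsf8, Tnfsf4 and Tnfsf11. There, the libraries of Ltb and Fasl overlapped, as did those of Tnfsf9 and Tnf, of Tnf and Lta, and of Tnfsf8 and Tnfsf4. Ltb was thus 6.03 and 6.39 times Fasl in the TRAIL+ libraries and 1.11 and 1.29 times Fasl in the CD49b+ libraries.

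**Figure D4:**
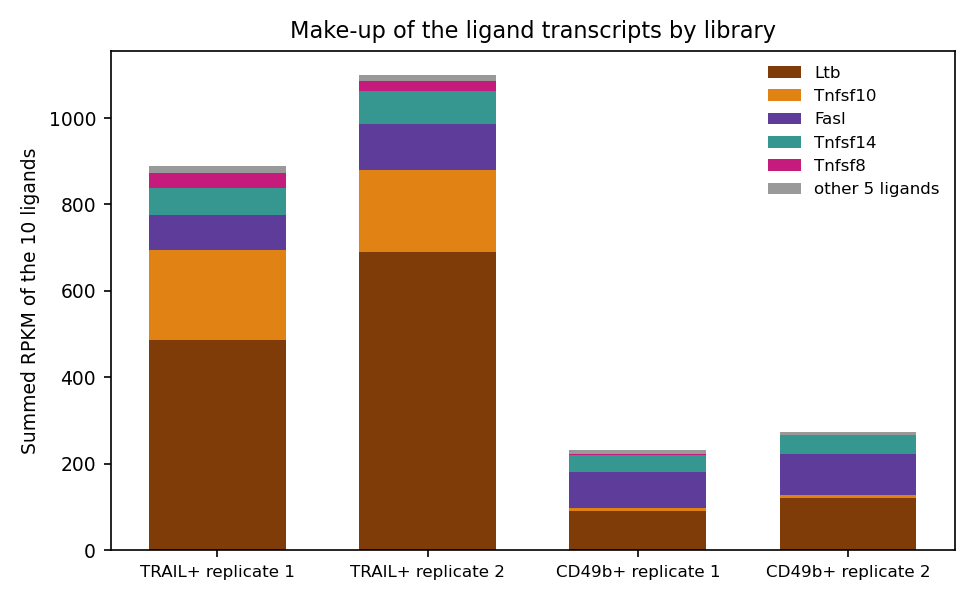
Summed RPKM of the 10 ligands in each library, stacked by ligand, with the 5 ligands lowest in TRAIL+ cells shown together. The TRAIL+ bars reach 889 and 1101 RPKM and the CD49b+ bars 232 and 274 RPKM, and the Fasl segment lies between 80.6 and 107.9 RPKM in all 4 libraries.

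The tested genes nearest to Ltb over the 4 libraries, by Euclidean distance of log2(RPKM + 1), were Cxcr3, a receptor for interferon-induced chemokines, at a distance of 0.571, and Gimap7, a lymphocyte GTPase gene, at 0.667. Those nearest to Tnfsf8 were Slc16a10, an amino acid transporter gene, at 0.574 and Htra3, a serine protease gene, at 0.654. With 4 libraries such a distance mostly reflects level and subset.

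Of the other ligands of the family, Tnfsf12 was the 1 that could be tested, and it fell in TRAIL+ cells. Its row also holds the accessions of Tnfsf13 and of the Tnfsf12-Tnfsf13 readthrough, so the ligands TWEAK and APRIL cannot be told apart in it. It stood at 22.5 and 30.6 RPKM in the TRAIL+ libraries and 58.3 and 56.4 RPKM in the CD49b+ libraries, a difference of -1.10 ± 0.20 (SE, limma adjusted p = 0.0289), which ran against that of the ligands that rose. Without CD49b+ replicate 1 or 2 the adjusted p was 0.212 and 0.181. Cd40lg had 7 and 4 reads in the TRAIL+ libraries and 3 and 0 in the CD49b+ libraries. Tnfsf13b had at most 6 reads in a library and Tnfsf15 and Eda at most 1. Cd70 and Tnfsf18 had 0 reads in all 4 libraries, which allows up to 3 reads in each. Cd70 lies between Tnfsf9 and Tnfsf14 in RefSeq's order, and Tnfsf18 between Tnfsf4 and Fasl, so these undetected genes stood beside detected ligands.

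Among receptors for the 10 ligands, Ltbr rose and Tnfrsf22 fell in TRAIL+ cells. Each met the filter of 1 RPKM only through the 2 libraries of the subset where it was high. Of 13 with a row, 7 were tested, 1 rose, 1 fell and 5 did not pass, where 4.76% of all tested genes were higher and 3.86% lower. At an unadjusted p under 0.05, 2 were higher and 1 lower (11.1% and 8.85% of all tested genes), and limma voom on reads gave 1 and 1. Ltbr, the receptor of lymphotoxin beta and LIGHT, which is best known on stromal and myeloid cells, rose from 0.4496 and 0.484 RPKM (4 reads in each CD49b+ library) to 3.74 and 3.64 RPKM, a difference of 1.68 ± 0.22 (SE, limma adjusted p = 0.00947). Tnfrsf22, a decoy receptor for TRAIL, fell to 0.431 and 0.463 RPKM in the TRAIL+ libraries from 3.002 and 2.67 RPKM in the CD49b+ libraries (difference -1.41 ± 0.22, limma adjusted p = 0.0186). That call was lost without CD49b+ replicate 1 (0.0967) or 2 (0.0502). Tnfrsf23, the related decoy, had 2 and 1 reads in the TRAIL+ libraries and 11 in each CD49b+ library and was too low to test. These decoys are close copies that can share reads, so single values are uncertain. The TRAIL death receptor Tnfrsf10b had 8 and 7 reads against 2 and 2.

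Receptors for TNF itself and for 4-1BB ligand were abundant. Tnfrsf1b, the most abundant receptor of the list by its mean over the 4 libraries, stood at 104 ± 0.376 and 114 ± 2.17 RPKM in TRAIL+ and CD49b+ cells (SD, n = 2 each), and Tnfrsf9 at 107 ± 7.5003 and 104 ± 5.23 RPKM. Their differences were -0.14 (95% interval -0.51 to 0.24) and 0.04 (-0.36 to 0.44). Tnfrsf1a, the other TNF receptor, stood at 88.9 and 111 RPKM in the TRAIL+ libraries and 57.6 and 61.1 RPKM in the CD49b+ libraries. Its difference of 0.74 (unadjusted 95% interval 0.29 to 1.18) did not pass (limma adjusted p = 0.0707). It passed with the gene length correction (0.0261) and the replicate block (0.00517). Tnfrsf8, which encodes CD30 and is the receptor of the Tnfsf8 product, had 0 reads in both TRAIL+ libraries and 2 reads in each CD49b+ library. Tnfrsf11a, the RANKL receptor, had 2 reads in TRAIL+ replicate 1 and 0 elsewhere, and the decoy Tnfrsf11b had 0 reads throughout.

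Of 13 other TNF receptors, 6 were tested, 1 rose and 0 fell by limma, beside 4.76% and 3.86% of all tested genes. At an unadjusted p under 0.05, 5 were higher and 1 lower (11.1% and 8.85% of all tested genes), and limma voom on reads gave 1 and 0. Tnfrsf21, the death receptor DR6, stood at 8.25 and 6.18 RPKM in the TRAIL+ libraries and 1.17 and 1.33 RPKM in the CD49b+ libraries (difference 1.86 ± 0.24, SE, limma adjusted p = 0.00875). Tnfrsf18, which encodes GITR and was the most abundant of this list, stood at 189 ± 31.4 and 107 ± 13.95 RPKM (limma adjusted p = 0.0754). It passed with the gene length correction (0.0161) and the replicate block (0.00271), and not by voom on reads (0.0796). Its ratio of means was 1.76 with all libraries and 1.56 to 1.97 with 1 library left out.

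Among 16 genes of the NF-kB family and its inhibitors, all tested, 1 fell and 0 rose by limma. That count of 1 is near the 3.86% of all tested genes that were lower. At an unadjusted p under 0.05, 5 were lower and 0 higher (8.85% and 11.1% of all tested genes), voom gave 1 and 0, and the median difference was -0.35. Nfkbiz, an inducible nuclear regulator of NF-kB targets, fell to 5.87 and 3.05 RPKM in the TRAIL+ libraries from 17.9 and 13.9 RPKM in the CD49b+ libraries (difference -1.67 ± 0.31, limma adjusted p = 0.0313), a call lost without CD49b+ replicate 1 (0.151) or 2 (0.0664) and with no filter on low values (0.07196). Tnfaip3, which encodes the NF-kB feedback inhibitor A20 and was the most abundant of the list by its mean over the 4 libraries, stood at 239.8 and 43.4 RPKM in the TRAIL+ libraries and 178 and 127 RPKM in the CD49b+ libraries. Its TRAIL+ libraries lay above and below both CD49b+ libraries. Without TRAIL+ replicate 1 its mean in CD49b+ cells was 3.51 times that in TRAIL+ cells. Without TRAIL+ replicate 2 its level in TRAIL+ cells was 1.58 times that in CD49b+ cells, so its direction rested on which library was kept.

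Genes of NFAT, AP-1 and the early response, which transcribe or accompany many inducible cytokine genes, were tested for all 20 members of that list. Of these, 1 fell and 0 rose by limma, a share near the 3.86% of all tested genes that were lower. At an unadjusted p under 0.05, 5 were lower and 2 higher (8.85% and 11.1% of all tested genes), and voom gave 1 and 0. Nr4a2, an early response nuclear receptor, was the one that fell (difference -1.65 ± 0.31, limma adjusted p = 0.0310), and its call was lost without CD49b+ replicate 1 (0.123) or 2 (0.09498) and with no filter on low values (0.0723). Junb, the most abundant of the list, stood at 1944 and 663 RPKM in TRAIL+ replicates 1 and 2 and at 1877 and 1316 RPKM in CD49b+ replicates 1 and 2. Without TRAIL+ replicate 1 its mean in CD49b+ cells was 2.41 times that in TRAIL+ cells. Without TRAIL+ replicate 2 its level in TRAIL+ cells was 1.22 times that in CD49b+ cells. In both subsets replicate 1 was above replicate 2 for 16 of the 20, where 34.6% of all tested genes were. Of the 8 tested ligands 3 did so, Tnfsf10 among them, which is near that share. Tnf had that direction, at 1.39-fold in TRAIL+ and 2.99-fold in CD49b+ cells, as did Tnfsf8, at 1.42-fold and 1.24-fold. Ltb had it the other way in both subsets, at 0.705 and 0.749. The part of the early response genes in the level of Tnf was not tested.

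**Figure D5:**
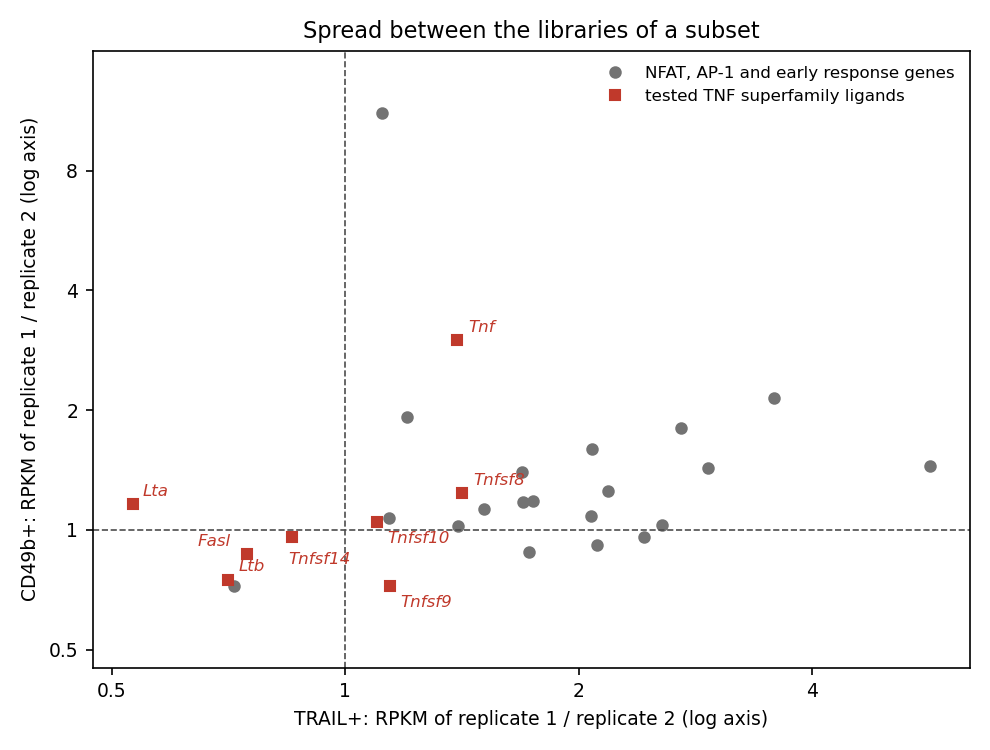
RPKM of replicate 1 divided by that of replicate 2, in TRAIL+ cells (x, log axis) and in CD49b+ cells (y, log axis), for the 8 tested ligands and 20 NFAT, AP-1 and early response genes, with dashed lines at equal levels. Above and to the right of the dashed lines lie 16 of the early response genes and 3 of the 8 ligands (Tnf, Tnfsf8 and Tnfsf10), and Ltb (0.705 and 0.749) lies below and to the left.

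Genes that control shedding of the ligands or decay of their transcripts did not pass the test. Of 16, 14 were tested, with 0 higher and 0 lower by limma or by voom. At an unadjusted p under 0.05, 2 were higher and 3 lower (11.1% and 8.85% of all tested genes). Adam17, the protease that sheds TNF, had a difference of -0.29 ± 0.16 (SE, limma adjusted p = 0.433). Zfp36, which encodes tristetraprolin, a factor that promotes decay of the Tnf transcript, was the most abundant of this list, at 438 and 193 RPKM in the TRAIL+ libraries and 665 and 475 RPKM in the CD49b+ libraries (difference -0.95 ± 0.42, limma adjusted p = 0.308). The mean of Zfp36 in CD49b+ cells was 1.81 times that in TRAIL+ cells with all libraries. It was 2.96 times without TRAIL+ replicate 1 and 1.30 times without TRAIL+ replicate 2.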

How the data were processed

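The data are 4 polyA RNA-seq libraries, 2 per subset, grouped by sample title. RPKM values were deposited by the authors, 1 file a library, per the file headers. The submitters' processing notes name TopHat 1.4.1 and mm9. How reads were counted, with which annotation, filters and strand use, is not stated in the labels or headers, so reads of overlapping genes cannot be told apart. Of the 21025 rows, 20661 were named through RefSeq accessions (GRCm38.p6), 191 by symbol and 65 by synonym, and 108 were unmatched. RefSeq also gave gene order.

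RPKM values move in whole steps, from which whole reads (relative tolerance 1e-06, 100% of 13681 rows above 0) and library totals of 3786497 to 4232967 were worked out. Reads rest on lengths worked out for each row, and those of Tnfsf8 on the length nearest the annotated one.

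The 10047 genes that reached 1 RPKM in 2 or more libraries were tested with limma 3.58.1 in R 4.3.3 on log2(RPKM + 1), a scale that understates changes of low genes, with a trended prior and no covariate. Folds are ratios of mean RPKM. An exact permutation test of 2 against 2 cannot go below 0.333 and was not used. Alternatives were other pseudocounts, filters, prior, scaling, voom on reads, a gene length correction, a replicate block and each library left out. Named are the 10 ligands, the other family ligands, up to 6 genes a direction that passed and the most abundant gene of each pathway list. Also named are the 2 most abundant of most marker lists, some gate genes, nearest genes and the gene neighbours of Ltb, Tnf, Lta and Tnfsf8. Of the neighbours not described, Fndc3b near Tnfsf10 and Prdx6 next to Tnfsf4 were higher (limma adjusted p = 0.0145 and 0.0467). The other tested ones did not pass. Tnfrsf1a, Tnfrsf8, Tnfrsf9, Tnfrsf10b, Tnfrsf11a, Tnfrsf11b, Tnfrsf23, Adam17, Itga1, Xcr1 and Zbtb46 were added after their values were seen. So were the less abundant markers of T cells and of Kupffer cells and monocytes. The ligands and lists were chosen with earlier results of these data known.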

Additional observations from a re-analysis of the deposited data

How the results depend on the processing

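Tnfsf10, Tnfsf8 and Ltb passed the test in TRAIL+ cells under each of the 13 alternatives, with differences of 4.56 to 4.80, 3.52 to 4.58 and 2.19 to 2.70 and limma adjusted p-values of at most 0.00238, 0.00656 and 0.0329. The count of higher ligands stayed at 3 to 4, except that it was 5 with the replicate block, and that of lower ligands at 0. Over all tested genes, 478 were higher and 388 lower, against 1049 and 833 with the replicate block, 693 and 589 with the gene length correction, and, with 1 library left out, 777 and 763 (TRAIL+ replicate 1), 245 and 198 (CD49b+ replicate 1) and 256 and 211 (CD49b+ replicate 2). The 6 pathway lists, in the order described, held 1, 7, 6, 16, 20 and 14 tested genes. Over these lists 2 genes were higher and 4 lower, beside 4.76% and 3.86% of all tested genes, and such counts are no result about the lists. With 1 library left out these counts were 3 to 8 and 0 to 22, with the gene length correction 7 and 8, with the replicate block 12 and 17, and with an RPKM minimum of 5 the higher count was 1, since fewer genes were tested. With 1 library left out, the difference of Lta ran from -0.10 to 0.51 and that of Fasl from -0.13 to 0.29. Both were lowest without TRAIL+ replicate 2, and that of Fasl was also below 0, at -0.02, with CD49b+ replicate 1 left out. The labels do not say that equal replicate numbers share a mouse or a day, although their deviations correlated across genes (0.563). Under the replicate block Tnf (limma adjusted p = 0.00584) and Tnfsf14 (0.00506) also passed. Tnf passed as well (0.0442) with CD49b+ replicate 1 left out. Where an arm was left with 1 library, that library was assumed to vary like the others.  The cause of these shifts was not tested. Ligands under about 10 reads a library (Tnfsf4, Tnfsf11) are limited by depth.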
